A study of Homo sapiens with 22 samples.

Results

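The mouse stroma of NSG xenografts after 6 weeks of alectinib was described from every gene of the mouse expression table in 6 of the 22 libraries of the series: NSG 6 weeks replicates 1, 2 and 3 against therapy-naive NSG replicates 1, 3 and 4. Of 54532 mouse genes listed, 14287 reached 1 FPKM (fragments per kilobase of gene, scaled to library size) in at least 3 of the 20 libraries of that table and were tested. All tumours were grown from H3122, a human lung adenocarcinoma line driven by an ALK fusion. Reads on the mouse genome were therefore taken to stand for host cells. What part of them came from tumour cells was not tested. The control group carried H3122 tumours in NSG hosts with no therapy, and the treated group carried H3122 tumours in NSG hosts given alectinib, an ALK kinase inhibitor, for 6 weeks. NSG mice have no mature T or B cells and no functional natural killer cells, which limits these tumours as a model of a complete stroma, as does the single tumour line. The labels give no age and do not say whether libraries of a group come from separate animals. The p-values of single genes therefore measure the spread of libraries within groups, taken over all 20 libraries of the mouse table. That spread may be in part technical. The fourth library of the naive and of the 6-week NSG group in the series (replicate 2 of the naive, replicate 4 of the 6-week tumours) was not analysed for mouse genes. NSG tumours after 2 weeks of alectinib (4 libraries) and H3122 tumours in hHGF-NSG hosts, which the label names for human HGF, naive (3 libraries) and after 6 weeks (3 libraries), are set beside them.

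A tumour stroma is made of fibroblasts that lay down matrix, contractile myofibroblasts, blood and lymphatic vessels with their pericytes, macrophages, granulocytes and whatever tissue the tumour grew into, which under the skin is rich in fat. Carcinoma cells recruit and activate these cells through growth factors, hypoxia-induced signals and cytokines. A tumour held by a kinase inhibitor keeps residual cancer cells within this host tissue.

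One control library went against its label. In the library labelled NSG naive replicate 1 human HGF had 43 reads, against 0, 0 and 1 in the other 3 naive NSG libraries of the human table, and its mouse Hgf stood at 0.872 FPKM against 3.93 and 3.31 in replicates 3 and 4. At 6 weeks NSG replicates 1, 2 and 3 held 1, 0 and 6 human HGF reads, and all were kept in both fits. The 3 hHGF-NSG naive libraries held 13, 28 and 44 human HGF reads and 0.123, 1.65 and 1.06 FPKM of mouse Hgf. Results are therefore given first from the fit to all 20 libraries and then from the same fit without the library labelled NSG naive replicate 1, called the reduced fit below. The value in square brackets behind a change, a median or an adjusted p is that of the reduced fit. Changes are limma differences on the log2(FPKM + 1) scale, 6 weeks minus naive, which understates the fold of genes near 0. A gene was called where its Benjamini-Hochberg adjusted p over all tested genes was under 0.05. Naive values are given in the order of replicates 1, 3 and 4, and 6-week values in the order 1, 2 and 3.

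Reads of the mouse table made up a larger share of each 6-week library. Mouse reads summed to 2018939, 895826 and 1286491 in the naive libraries, or 7.94% ± 3.53 (SD, n = 3) of human and mouse reads together, and to 2594895, 3340218 and 3049103 at 6 weeks, or 19.16% ± 2.51 (SD, n = 3). The groups did not overlap (exact two-sided permutation test, p = 0.1, the smallest that 3 against 3 can give). FPKM values are scaled within the mouse reads, so the changes below are within these reads and are not levels per whole tumour. In these bulk libraries fewer cells of a type, less RNA per cell and a larger share of other host RNA cannot be told apart.

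Between therapy-naive and 6-week tumours 2486 of 14287 mouse genes were called (17.4%), 1259 higher (8.81%) and 1227 lower (8.59%), with a median change over all tested genes of 0.05. The 3 and 3 libraries did not overlap for 2495 tested genes that were higher (17.5%) and 2159 that were lower (15.1%). In the reduced fit 2583 of 14186 genes were called (18.2%), 1308 higher (9.22%) and 1275 lower (8.99%), with a median of 0.06, and 2039 genes were called in the same direction in both. The 12 protein-coding genes that rose most were Cox8b, Thrsp, Cidea, Dgat2, Adrb3, Dbp, Fbln7, Nnat, Ces1d, Cyp2e1, Apod and Retnla. Several of these are genes of the fat cell: Dgat2 makes the last step of triglyceride synthesis, Thrsp promotes lipogenesis, Cidea coats lipid droplets, and Adrb3 is the beta-3 adrenergic receptor through which fat breakdown is triggered. The 12 that fell most were Gzme, S100a9, Gzmd, S100a8, Mmp13, Actg2, Mmp10, Apln, Ptx3, Cnn1, Saa3 and Esm1, among them granzymes, neutrophil proteins, collagen-degrading proteases, contractile proteins and products of sprouting vessels.

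**Figure D1:**
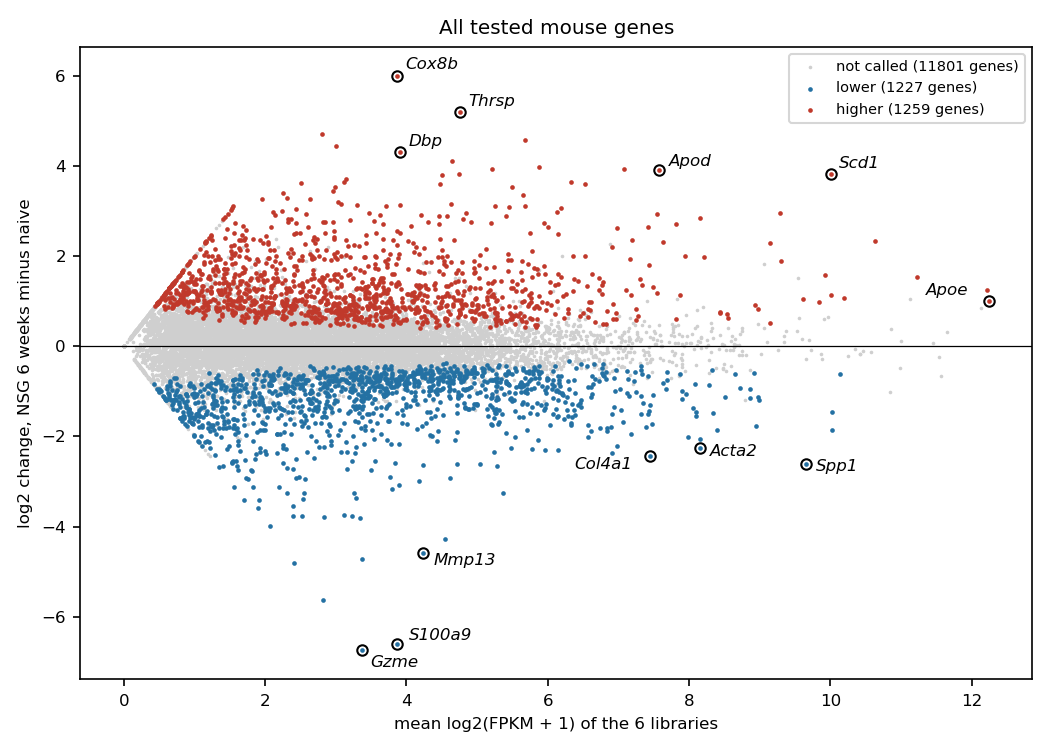
Each of the 14287 tested mouse genes by its mean log2(FPKM + 1) over the 6 libraries (horizontal) and its log2 change, 6 weeks minus naive (vertical). Red and blue points are the 1259 genes called higher and the 1227 called lower, grey points the rest, and circles mark 12 genes described in the text. The strongest falls are Gzme and S100a9, and Scd1, Spp1 and Apod changed at high expression.

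White adipocyte genes rose. All 13 listed genes were tested and called higher, with a median of 2.85 [3.19] in the full [reduced] fit, and all 13 kept their call when any 1 of the 6 libraries was left out. Their summed level was 2157, 1243 and 571 FPKM in the naive libraries and 7417, 6043 and 6772 FPKM at 6 weeks. Perilipin 1 (Plin1, chr7:79720218-79732903 of mm10), which coats the lipid droplet, stood at 34.6, 12.1 and 7.06 FPKM in the naive libraries and 188, 151 and 143 FPKM at 6 weeks. All 6-week values lay above all naive values, and that of the library labelled naive replicate 1 was the nearest to them (log2 change 3.37 [3.96], SE 0.60, adjusted p = 0.00082 [0.000342]). Leptin (Lep), the satiety hormone released by fat, rose from 4.41, 5.05 and 2.94 FPKM to 49.1, 36.6 and 45.6 FPKM (log2 change 3.14 [3.19]), and hormone-sensitive lipase (Lipe) from 18.9, 12.5 and 7.25 FPKM to 126, 99.8 and 109 FPKM (3.11 [3.41]). Resistin (Retn), another secreted product of mouse fat, was lowest in naive replicate 4, with 35.4, 21.4 and 3.12 FPKM in the naive libraries and 113, 109 and 165 FPKM at 6 weeks (3.09 [3.73]). Adiponectin (Adipoq), the droplet protein Cidec and the master regulator Pparg had changes of 2.93 [3.42], 2.65 [3.08] and 2.38 [2.58]. The naive libraries themselves differed, and each of the 13 genes except Lep was highest among them in the library labelled naive replicate 1.

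Genes of thermogenic fat were detected at 6 weeks. Of 7 listed genes, 5 were tested and 3 called higher (3 in the reduced fit and 2 to 4 without any 1 library, median 2.46 [2.46]). Cox8b, a respiratory chain subunit found mainly in brown fat and muscle, stood at 4.97, 0 and 0 FPKM in the naive libraries and 116, 125 and 107 FPKM at 6 weeks, so naive replicates 3 and 4 were listed at 0 (log2 change 6.00 [6.86], SE 1.06, adjusted p = 0.000722 [0.000517]). Cidea had 1.54, 0 and 0 FPKM in the naive libraries and 31.9, 31.1 and 42.7 FPKM at 6 weeks (log2 change 4.72 [5.17], SE 0.88, adjusted p = 0.00112 [0.00147]). Uncoupling protein 1 (Ucp1), which turns the proton gradient into heat, was at 0 FPKM in each naive library and 2.25, 3.87 and 9.45 FPKM at 6 weeks, at least 2.51-fold higher against a floor of 3 reads per naive library. The call of Ucp1 ended without 6-week replicate 3, its highest library (adjusted p = 0.0675), so its rise rests on that library. Adrb3, at 1.99, 0.669 and 0 FPKM in the naive libraries and 32.8, 38.3 and 38.6 FPKM at 6 weeks, separated the groups fully (log2 change 4.46 [4.86]).

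Genes of fatty acid synthesis rose, and the sterol pathway genes Sqle and Srebf2 fell. Stearoyl-CoA desaturase 1 (Scd1), which makes monounsaturated fatty acids, stood at 775, 253 and 103 FPKM in the naive libraries and 4327, 3399 and 3928 FPKM at 6 weeks (log2 change 3.82 [4.57], SE 0.71, adjusted p = 0.00105 [0.000317]). Fatty acid synthase (Fasn) and acetyl-CoA carboxylase (Acaca), which act before it, also rose (3.07 [3.75] for Fasn and 1.99 [2.34] for Acaca), although the call of Acaca ended without naive replicate 4 (adjusted p = 0.0508). On the sterol side, squalene epoxidase (Sqle) had 3.96, 4.68 and 5.33 FPKM in the naive libraries and 1.59, 1.19 and 1.19 FPKM at 6 weeks, lower in every 6-week library (-1.28 [-1.37]). The call of Sqle ended after thinning, in which every library was reduced at random to the mouse reads of the smallest (adjusted p = 0.0663). The sterol regulator Srebf2 fell too (-0.96 [-1.01]). In all, 3 of the 12 sterol and lipid synthesis genes were called higher and 4 lower in both fits. Among the strongest rises were 3 further genes of lipid metabolism. Dgat2 stood at 20.2, 7.32 and 5.59 FPKM in the naive libraries and 275, 216 and 265 FPKM at 6 weeks (4.58 [5.09]). Thrsp stood at 13.3, 5.16 and 0 FPKM in the naive libraries and 170.2, 146 and 172 FPKM at 6 weeks (5.20 [6.04]). Ces1d, a carboxylesterase with close paralogs, stood at 11.3, 15.7 and 3.12 FPKM in the naive libraries and 147, 123 and 162 FPKM at 6 weeks (3.93 [4.12]). Each of these had no overlap between groups, and the same separation was seen for 4 more. The xenobiotic-metabolising Cyp2e1 stood at 41.5, 54.9 and 16.7 FPKM in the naive libraries and 594, 534 and 464 FPKM at 6 weeks (3.93 [4.07]). The lipid-binding Apod stood at 49.3, 103 and 21.6 FPKM in the naive libraries and 724, 568 and 966 FPKM at 6 weeks (3.91 [3.92]). The imprinted proteolipid gene Nnat rose from 15.7, 27.8 and 5.83 FPKM to 273, 194 and 235 FPKM (3.97 [4.05]). Retnla, a secreted protein of the resistin family, varied among naive libraries, with 5.98, 20.7 and 1.37 FPKM in the naive libraries and 106, 86.4 and 109 FPKM at 6 weeks (3.83 [3.82]).

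No marker of muscle, skin or nerve was called higher beside the fat genes. Of 8 skeletal muscle genes 3 were tested and the intermediate filament Des was called lower (-1.77 [-1.98]), with summed levels of 16.0 to 79.7 FPKM in naive and 7.50 to 11.2 FPKM in 6-week libraries. Of 7 keratinocyte genes 4 were tested, and basal keratin Krt14 fell from 7.89, 22.5 and 15.9 FPKM to 1.26, 0.327 and 0.374 FPKM (-3.25 [-3.63]). None of 5 tested Schwann cell genes of 7 was called in either fit, and the myelin gene Mbp had a change of 0.29 [0.11]. The share of mouse reads was higher at 6 weeks, as the fat genes were. Within each group the order of the libraries was not the same for the share and for the summed adipocyte level. The part of the share in the rise of the fat genes was not tested.

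**Figure D2:**
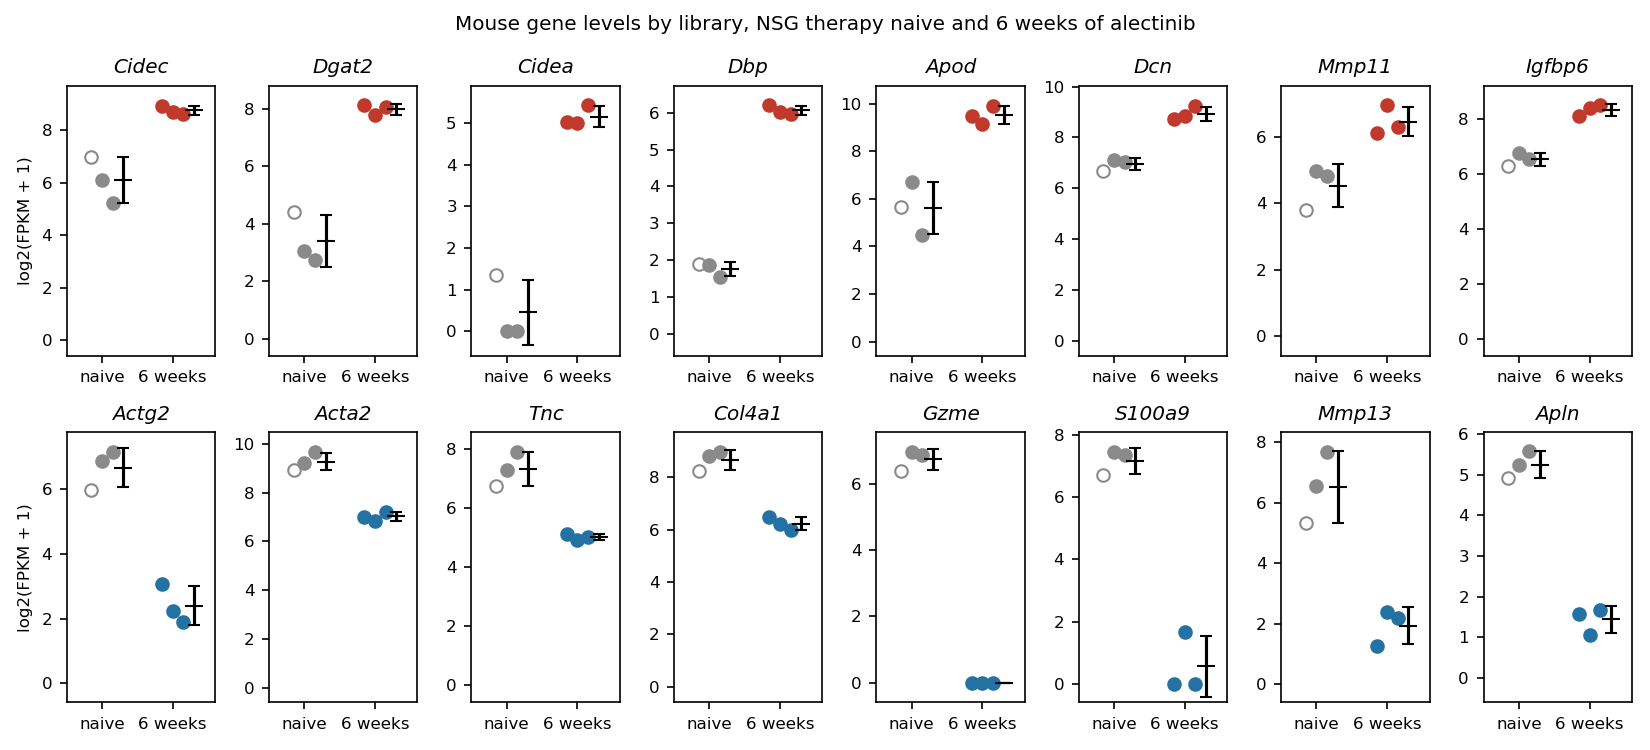
Levels of 16 mouse genes as log2(FPKM + 1) in each library. Grey points are therapy-naive NSG libraries, with the library labelled replicate 1 open, red or blue points are 6-week libraries, and bars show the mean and SD of 3 libraries. In each panel the 2 groups are separate.

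Contractile genes of myofibroblasts fell together. Of 12 tested genes of 12 listed, 11 were called lower in each fit, with a median of -1.71 [-1.95], and 9 to 11 stayed called when 1 of the 6 libraries was left out. Smooth muscle alpha actin (Acta2, chr19:34241090-34255336 of mm10), the standard marker of activated fibroblasts and of mural cells, stood at 488, 601 and 809 FPKM in the naive libraries and 128, 114 and 148 FPKM at 6 weeks. Every naive library was several-fold above every 6-week library (log2 change -2.25 [-2.42], SE 0.39, adjusted p = 0.000659 [0.00111]). Gamma smooth muscle actin (Actg2) fell further, from 62.7, 117 and 143 FPKM to 7.33, 3.69 and 2.75 FPKM (log2 change -4.28 [-4.63], SE 0.67, adjusted p = 0.000276 [0.00044]). Calponin 1 (Cnn1), which damps actomyosin, had 10.5, 26.8 and 21.9 FPKM in the naive libraries and 1.08, 0.105 and 0.240 FPKM at 6 weeks (-3.78 [-4.15]). The myosin light chain Myl9 had 148, 220.5 and 247 FPKM in the naive libraries and 50.1, 52.0 and 67.1 FPKM at 6 weeks (-1.82 [-2.04]). The groups did not overlap for any of these 4 genes. Tropomyosins Tpm1 and Tpm2 and smooth muscle myosin Myh11 fell by smaller steps (-1.41 [-1.57], -1.74 [-2.09] and -1.73 [-1.97]). The calls of Mylk and Cnn2 ended without naive replicate 4, and that of Mylk also without naive replicate 3 or any 6-week library (adjusted p 0.0506 to 0.185 for Mylk and 0.0551 for Cnn2). Transgelin (Tagln), an actin-binding protein of smooth muscle, was the member not called and stood at 6.76, 2.84 and 4.13 FPKM in the naive libraries and 2.59, 2.75 and 1.65 FPKM at 6 weeks (-0.70 [-0.43]).

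Basement membrane collagens and collagen V fell, and the chains of collagens I and III were not called. Of 18 collagen chains 7 were called lower and 1 higher (8 lower and 0 higher in the reduced fit, median -0.56 [-0.84]). Col4a1 (chr8:11198423-11312826 of mm10), a chain of the network collagen beneath endothelium, stood at 301, 444 and 497 FPKM in the naive libraries and 87.5, 73.4 and 62.2 FPKM at 6 weeks (log2 change -2.44 [-2.66], SE 0.26, adjusted p = 8.1e-06 [1.37e-05]). Its partner Col4a2 fell alike, from 195, 302 and 342 FPKM to 59.2, 49.8 and 47.6 FPKM (-2.37 [-2.61]). Both chains dropped in every 6-week library below every naive one. Col18a1, the source of endostatin, and Col5a1, which sets fibril diameter, also fell (-1.75 [-2.03] and -1.72 [-1.89]), as did Col15a1, Col5a3 and Col6a3. Collagen I, the main fibre of scar, had 2367, 3907 and 5861 FPKM in the naive libraries and 1887, 2951 and 2507 FPKM at 6 weeks for Col1a1, and these ranges overlapped (log2 change -0.65 [-0.99], SE 0.36, adjusted p = 0.234 [0.0751]). Col3a1 and Col1a2 were not called either (-0.17 [-0.41] and -0.07 [-0.35]). Col14a1, a fibril-associated collagen, was called higher (0.82, adjusted p = 0.0368) but not in the reduced fit (0.49, adjusted p = 0.181) nor without any 1 of the 6-week libraries, so that 0 of 18 were then higher.

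Matrix glycoproteins and collagen crosslinkers fell in part. Of 17 tested genes 8 were called lower and none higher (7 lower and 0 higher in the reduced fit, median -0.63 [-0.83]). Fibrillin 2 (Fbn2), a microfibril protein of developing and wounded tissue, stood at 10.6, 14.0 and 19.3 FPKM in the naive libraries and 1.12, 0.851 and 1.19 FPKM at 6 weeks (log2 change -2.89 [-3.09], SE 0.25, adjusted p = 7.02e-07 [1.43e-06]). Tenascin C (Tnc), an adhesion-modulating protein of wounds and tumours, had 105, 153 and 235 FPKM in the naive libraries and 33.2, 28.6 and 30.8 FPKM at 6 weeks (log2 change -2.30 [-2.59], SE 0.43, adjusted p = 0.00106 [0.001]). Lysyl oxidase-like 2 (Loxl2), which crosslinks collagen, fell from 82.3, 81.2 and 136 FPKM to 20.0, 18.3 and 20.1 FPKM (-2.26 [-2.38]), and thrombospondin 1 (Thbs1) from 454, 439.7 and 663 FPKM to 154, 143 and 88.7 FPKM (-2.02 [-2.10]). For all 4 the highest 6-week library lay below the lowest naive one. Lox and Fbn1 fell as well (-1.43 [-1.55] and -1.35 [-1.48]), whereas periostin (Postn) and Sparc were not called (0.03 [-0.14] and -0.49 [-0.68]).

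Small leucine-rich proteoglycans, which space collagen fibrils and bind growth factors, were higher. Of 9 tested genes 4 were called higher and none lower in each fit and without any 1 library (median 1.05 [0.79]). Decorin (Dcn), the main one in skin and adipose connective tissue, stood at 101, 137 and 130.0 FPKM in the naive libraries and 423, 453 and 608 FPKM at 6 weeks (log2 change 2.00 [1.86], SE 0.31, adjusted p = 0.000244 [0.00124]). Osteoglycin (Ogn) rose from 25.6, 26.4 and 24.0 FPKM to 124, 105 and 113 FPKM (log2 change 2.12 [2.13], SE 0.22, adjusted p = 7.28e-06 [4.23e-05]). Osteomodulin (Omd) was nearly absent in naive libraries, with 0.398, 2.01 and 0 FPKM in the naive libraries and 20.1, 12.3 and 27.5 FPKM at 6 weeks (3.63 [3.53]). Prelp, a basement membrane anchor, had 39.6, 65.2 and 50.6 FPKM in the naive libraries and 161, 132 and 133 FPKM at 6 weeks (1.46 [1.28]). In each of these 4 the groups were apart. Biglycan (Bgn), which shares its ligands with decorin, was not called (0.14 [-0.04]).

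Few general fibroblast markers passed the test. Of 10 markers Dcn and Pdgfra were called higher, and Dcn higher and the receptor Pdgfrb lower in the reduced fit (median 0.32 [0.24]). Pdgfra, the receptor that marks most fibroblasts, had 15.8, 18.4 and 21.9 FPKM in the naive libraries and 27.0, 30.1 and 26.3 FPKM at 6 weeks (log2 change 0.56 [0.45], SE 0.16, adjusted p = 0.0195 [0.0768]), and its call also ended without 6-week replicate 2 or naive replicate 3. Among 10 genes of the adventitial fibroblast state found across tissues, 3 were called higher (4 in the reduced fit): the actin-severing gelsolin (Gsn), the globin Cygb and Ly6c1. Gsn stood at 231, 322 and 225 FPKM in the naive libraries and 1463, 1149.9 and 1157 FPKM at 6 weeks (log2 change 2.28 [2.21], SE 0.31, adjusted p = 9.2e-05 [0.00044]). Cygb stood at 58.6, 77.5 and 66.9 FPKM in the naive libraries and 148, 156 and 185 FPKM at 6 weeks (1.26 [1.16]), and both genes had no overlap. Ly6c1, also present on endothelium, had changes of 0.98 [1.15], and its call ended without any 1 of the libraries other than the one labelled naive replicate 1 (adjusted p 0.0885 to 0.168). Fap and Thy1 were not called (0.20 [0.21] and 0.45 [0.28]).

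Proteases of the matrix split. Of 15 metalloproteinases and inhibitors 4 were called lower and 3 higher (5 and 2 in the reduced fit, median -0.12 [-0.23]). The collagenase Mmp13 stood at 39.2, 92.9 and 205 FPKM in the naive libraries and 1.38, 4.20 and 3.57 FPKM at 6 weeks (log2 change -4.58 [-5.18], SE 0.63, adjusted p = 9e-05 [5.18e-05]). Stromelysin 2 (Mmp10) was at 10.4, 10.5 and 34.8 FPKM in the naive libraries and 0, 0.167 and 0 FPKM at 6 weeks (-3.99 [-4.27]), and both were far lower in every 6-week library. The neutrophil collagenase Mmp8 and the inhibitor Timp1 fell too (-1.77 [-1.41] and -1.50 [-1.23]). Stromelysin 3 (Mmp11), typical of fibroblasts near carcinoma and of remodelling fat, rose from 12.7, 30.5 and 27.2 FPKM to 67.8, 122 and 77.2 FPKM (log2 change 1.92 [1.55], SE 0.35, adjusted p = 0.000948 [0.00513]). The inhibitor Timp4, prominent in fat, rose from 1.14, 0.383 and 0 FPKM to 5.81, 5.51 and 7.87 FPKM (2.35 [2.64]). Gelatinase A (Mmp2) was called in the full fit (0.93, adjusted p = 0.0192) and not in the reduced fit (0.75, adjusted p = 0.0777) nor without 6-week replicate 2 or 3. Fbln7, a fibulin that binds matrix proteins, was among the strongest rises, with 5.55, 5.94 and 3.81 FPKM in the naive libraries and 70.1, 136 and 116 FPKM at 6 weeks (4.11 [4.17]).

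Granzymes c, d and e, serine proteases that have no counterpart of the same name in humans, fell to 0 or close to it. Of 8 granzyme and perforin genes 3 passed the filter and all 3 fell in each fit and without any 1 library. Gzme (chr14:56117626-56120625 of mm10) stood at 82.6, 124 and 117 FPKM in the naive libraries and 0 FPKM in each library at 6 weeks, at least 89.7-fold lower against a floor of 3 reads per library (adjusted p = 3.77e-08, and 5.85e-07 in the reduced fit). Gzmd had 29.3, 48.0 and 81.7 FPKM in the naive libraries and 0 FPKM in each library at 6 weeks, at least 46.3-fold lower (adjusted p = 4.25e-09 and 2.78e-09). Gzmc fell from 24.0, 30.3 and 40.4 FPKM to 1.65, 1.93 and 0.736 FPKM (-3.74 [-3.92]). These genes are close paralogs, so the division of reads among them is uncertain, and the summed level of the list went from 136 to 239 FPKM to 0.736 to 1.93 FPKM. Of 11 lymphocyte markers, cells that NSG hosts lack, 3 passed the filter, with a summed level of 6.59 to 10.5 FPKM in naive and 4.24 to 8.07 FPKM in 6-week libraries. The T cell receptor constant gene Trac was at 4.79, 4.83 and 1.75 FPKM in the naive libraries and 0.394, 0.923 and 0.352 FPKM at 6 weeks, called lower in the full fit (adjusted p = 0.0373) and not in the reduced fit (0.102) or without naive replicate 3 or any 6-week library. Of 6 tested mast cell genes of 7 the histamine-forming enzyme Hdc, also made by neutrophils, fell (4.41, 6.36 and 4.49 FPKM in the naive libraries and 0.519, 0.0450 and 0.412 FPKM at 6 weeks, log2 change -2.20 [-2.28]). The mast cell proteases Cpa3, Cma1, Mcpt4 and Tpsb2 were not called (-0.21 [0.45], -0.32 [0.24], 0.44 [1.08] and -1.50 [-0.85]), with 2 genes lower without 6-week replicate 1.

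Neutrophil genes fell, 4 of them to near 0. Of 12 listed genes 6 were tested, and all 6 were called lower in each fit (median -2.55 [-2.82]), with 4 to 6 called when 1 library was left out. S100a9, a subunit of calprotectin and an abundant neutrophil transcript, stood at 103, 175 and 162 FPKM in the naive libraries and 0, 2.20 and 0 FPKM at 6 weeks (log2 change -6.61 [-6.84], SE 0.60, adjusted p = 1.73e-06 [6.93e-06]). Its partner S100a8 had 43.2, 71.6 and 44.9 FPKM in the naive libraries and 2.65, 1.24 and 0 FPKM at 6 weeks (log2 change -4.71 [-4.84], SE 0.80, adjusted p = 0.000519 [0.00142]). The chemokine receptor Cxcr2 fell from 4.26, 7.04 and 3.23 FPKM to 0, 0.189 and 0 FPKM (-2.41 [-2.46]), and Retnlg, found in mature neutrophils, from 2.27, 11.4 and 5.53 FPKM to 0 in each library, at least 3.44-fold lower. All 4 were lower in every 6-week library, and the call of Retnlg ended after thinning (adjusted p = 0.0539). Interleukin 1 beta (Il1b) and the receptor Csf3r fell less (-1.69 [-2.27] and -0.89 [-1.14]), and the call of Il1b ended without naive replicate 4 or 6-week replicate 2, that of Csf3r without naive replicate 3 or 4 or 6-week replicate 3. The granule genes Mpo, Ngp, Camp, Ltf and Elane and the surface marker Ly6g did not pass the filter.

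Among chemokines and cytokines of inflamed fibroblasts more were called lower than higher. Of 15 tested genes 8 were called lower and 2 higher, and in the reduced fit 5 lower and 2 higher (median -1.25 [-1.14]). Serum amyloid Saa3, an acute-phase protein of fibroblasts and macrophages, stood at 18.6, 22.5 and 88.5 FPKM in the naive libraries and 2.54, 1.32 and 1.01 FPKM at 6 weeks (log2 change -3.76 [-4.17], SE 0.60, adjusted p = 0.000312 [0.000342]). The neutrophil-recruiting chemokine Cxcl5 was at 26.9, 3.63 and 8.37 FPKM in the naive libraries and 0 FPKM in each library at 6 weeks, at least 21.9-fold lower (adjusted p = 0.000604, and 0.00305 in the reduced fit). Both were lower in all 6-week libraries. Cxcl2, which binds the same receptor, had 1.73, 12.6 and 15.1 FPKM in the naive libraries and 1.07, 0.973 and 0 FPKM at 6 weeks (-2.40 [-3.21]), and its call ended without naive replicate 3 or 4 or 6-week replicate 3 (adjusted p 0.0747 to 0.0863). The hyaluronan synthase Has1 fell from 3.57, 4.00 and 1.63 FPKM to 0.244, 0 and 0.146 FPKM (-1.80 [-1.69]). The pattern-recognition protein Ptx3 had 49.9, 25.7 and 12.8 FPKM in the naive libraries and 1.65, 0.214 and 1.23 FPKM at 6 weeks (log2 change -3.79 [-3.32], SE 0.54, adjusted p = 0.000129 [0.000677]). Il6, Ccl7 and Has2 were highest in the library labelled naive replicate 1 and were not called without it (-1.14, -1.16 and -0.94, adjusted p = 0.0838, 0.0715 and 0.0997). Their calls also ended without 6-week replicate 2 (Il6 and Has2) or 3 (Ccl7 and Has2), and the list had 5 genes lower without either of these libraries. Il33, an alarmin stored in stromal nuclei, rose from 59.7, 60.6 and 48.0 FPKM to 152, 185 and 178 FPKM (log2 change 1.60 [1.65], SE 0.18, adjusted p = 1.67e-05 [6.03e-05]). Cxcl12, the ligand of Cxcr4, rose by less (0.79 [0.94]), and its call ended without naive replicate 4 or 6-week replicate 1, which left 1 gene of the list higher.

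Most general macrophage genes did not pass the test, and genes of resident macrophages fell. Of 13 macrophage genes 1 was called higher and 3 lower (0 and 2 in the reduced fit, median -0.19 [-0.37]). Lysozyme (Lyz2), complement C1qa and the receptor Csf1r were not called (0.32 [0.39], -0.17 [-0.37] and -0.23 [-0.35]), and Lyz2 had 3133, 2735 and 2749 FPKM in the naive libraries and 3414, 3237 and 4175 FPKM at 6 weeks. Cd14, the endotoxin co-receptor, was lower in both fits (-0.91 [-0.84]) but not called after thinning (adjusted p = 0.0575). Also lower in both fits was the integrin Itgam (-0.70 [-0.75]), whose call ended without naive replicate 3 or 6-week replicate 2 or 3. Adgre1, the F4/80 antigen, and Apoe, a lipid carrier also made by fat, were called lower and higher in the full fit (-0.63 and 1.01) and not in the reduced fit (adjusted p = 0.109 and 0.125). These calls also ended without 6-week replicate 1 (both), 6-week replicate 2 or naive replicate 3 (Adgre1) or 6-week replicate 3 (Apoe), and the list had 1 gene lower without naive replicate 3 or 6-week replicate 2. Of 9 resident macrophage genes 6 were called lower and none higher in each fit and without any 1 library (median -0.87 [-0.76]). The haemoglobin scavenger Cd163 stood at 32.1, 34.3 and 25.8 FPKM in the naive libraries and 7.21, 5.79 and 5.06 FPKM at 6 weeks (log2 change -2.18 [-2.14], SE 0.33, adjusted p = 0.000206 [0.000824]). Lyve1, a hyaluronan receptor of perivascular macrophages and lymphatic vessels, had 28.5, 20.5 and 15.7 FPKM in the naive libraries and 4.79, 3.74 and 1.80 FPKM at 6 weeks (log2 change -2.37 [-2.16], SE 0.39, adjusted p = 0.000437 [0.00235]). The transglutaminase F13a1 and the reductase Cbr2 fell from 85.4, 74.0 and 55.6 FPKM to 24.2, 20.7 and 19.0 FPKM and from 202, 157 and 95.8 FPKM to 54.6, 36.4 and 41.4 FPKM (-1.69 [-1.55] and -1.71 [-1.48]). No 6-week library reached a naive one for these 4 genes.

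Activation genes of macrophages moved both ways. Of 10 tested genes 4 were called lower and 2 higher (5 and 2 in the reduced fit, median -0.64 [-0.79]). Osteopontin (Spp1), a secreted adhesion protein of tumour macrophages, stood at 1612, 2037 and 2429 FPKM in the naive libraries and 315, 286 and 375 FPKM at 6 weeks (log2 change -2.62 [-2.78], SE 0.44, adjusted p = 0.000491 [0.000962]). Arginase 1 (Arg1), which consumes arginine, had 162, 82.1 and 129 FPKM in the naive libraries and 23.6, 35.4 and 15.8 FPKM at 6 weeks (log2 change -2.29 [-2.07], SE 0.44, adjusted p = 0.0013 [0.00663]), and both were lower in every 6-week library. The chitinase-like Chil3 fell (11.8, 3.46 and 4.02 FPKM in the naive libraries and 0.226, 1.41 and 0 FPKM at 6 weeks, log2 change -2.20 [-1.72]), and the nitric oxide synthase Nos2 fell (-1.27 [-1.55]). Cathepsin K (Ctsk), a collagen-degrading protease of macrophages and fibroblasts, rose from 76.7, 188 and 224 FPKM to 432, 593 and 808 FPKM (log2 change 1.99 [1.52], SE 0.35, adjusted p = 0.000641 [0.00247]). Trem2 and Gpnmb, lipid-associated macrophage genes, were not called (0.07 [0.03] and -0.36 [-0.20]). Among 6 monocyte genes 4 were called lower (3 in the reduced fit, 2 without 6-week replicate 3). The proteoglycan versican (Vcan), which fibroblasts also make, was at 13.5, 12.8 and 19.2 FPKM in the naive libraries and 3.64, 2.55 and 4.05 FPKM at 6 weeks (-1.87 [-1.94]). Fibronectin (Fn1), made by many stromal cells, had changes of -0.86 [-0.99], a call that ended without naive replicate 3 or 4 or 6-week replicate 1 or 3. The monocyte receptor Ccr2 was called in the full fit (-0.66) and not in the reduced fit (adjusted p = 0.166) or without 6-week replicate 2 or 3.

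Calls among antigen presentation genes depended on single libraries. Of 7 MHC class II genes 2 were called higher, the invariant chain Cd74 and the peptide loader H2-DMa, and 3 in the reduced fit (median 0.63 [0.86]). Cd74 stood at 419.8, 341 and 369.5 FPKM in the naive libraries and 630.2, 678 and 698 FPKM at 6 weeks, without overlap (log2 change 0.83 [0.91], SE 0.24, adjusted p = 0.0244 [0.0289]). None of the 7 was called without 6-week replicate 2 or 3 or without naive replicate 4, and 1 without naive replicate 3 or 6-week replicate 1. H2-DMa was not called in the reduced fit (0.81 in the full fit, 0.89 with adjusted p = 0.0585 in the reduced one). Of 6 tested dendritic cell genes of 7 Clec9a was called (0.79) and lost its call in the reduced fit (adjusted p = 0.151) and without each other library except naive replicate 3. Among 16 interferon-response genes 3 were called lower and 1 higher (1 lower and 2 higher in the reduced fit, median -0.41 [-0.24]). Ifi27l2a rose from 501, 341 and 204 FPKM to 1236, 1059 and 1402 FPKM (log2 change 1.90 [2.21], SE 0.42, adjusted p = 0.00418 [0.00273]). The antiviral genes Oas2, Oas1a and Rsad2 had changes of -1.03 [-0.85], -1.01 [-0.90] and -1.06 [-0.97], and none of them was called without 6-week replicate 3. The calls of Oas1a and Rsad2 also ended in the reduced fit and without naive replicate 4 or 6-week replicate 1, leaving 1 gene lower in each case, and that of Oas1a ended without naive replicate 3, that of Rsad2 without 6-week replicate 2.

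Several complement genes rose. Of 15 tested genes 5 were called higher and 1 lower (4 and 0 in the reduced fit, median -0.04 [-0.12]). Adipsin (Cfd), the factor D protease and a major product of fat, stood at 1332, 737 and 352 FPKM in the naive libraries and 4071, 3109 and 3573 FPKM at 6 weeks (log2 change 2.34 [2.80], SE 0.50, adjusted p = 0.00325 [0.00124]). The classical pathway proteases C1ra and C1s1 rose from 41.3, 50.4 and 55.0 FPKM to 131, 138 and 146 FPKM and from 65.1, 66.7 and 68.7 FPKM to 164, 169 and 189 FPKM (1.49 [1.37] and 1.36 [1.34]). C2 rose from 13.5, 10.2 and 8.69 FPKM to 23.9, 31.3 and 30.8 FPKM (1.34 [1.50]). These 4 genes were higher in all 6-week libraries. The C1 inhibitor Serping1 was called in the full fit (0.64) and not in the reduced one (adjusted p = 0.153) or without naive replicate 3 or any 6-week library. The central component C3 was not called (0.23 [0.36]), and properdin (Cfp), called lower in the full fit (-0.77), lost its call in the reduced fit (adjusted p = 0.122) and without naive replicate 3 or 6-week replicate 2 or 3. Without naive replicate 4, 2 genes of the list were lower.

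Blood vessel genes fell, among them most genes of sprouting vessels. Of 12 endothelial genes 8 were called lower (9 in the reduced fit, median -0.99 [-1.15]), and of 9 tip cell and angiogenic genes 8 were called lower in each fit (median -2.54 [-2.81]). VE-cadherin (Cdh5), which holds endothelial junctions, stood at 73.9, 87.3 and 108 FPKM in the naive libraries and 37.7, 33.9 and 23.2 FPKM at 6 weeks (log2 change -1.49 [-1.62], SE 0.19, adjusted p = 3.99e-05 [5.46e-05]). The fenestral diaphragm protein Plvap had 191, 318 and 318 FPKM in the naive libraries and 104, 91.5 and 86.7 FPKM at 6 weeks (-1.51 [-1.75]). Pecam1 had 54.1, 61.1 and 59.5 FPKM in the naive libraries and 24.5, 26.8 and 24.7 FPKM at 6 weeks (-1.17 [-1.22]). Every 6-week library was lower than every naive one for these 3 and for the VEGF receptor Flt1 (-1.10 [-1.25]). Vwf and Tek, genes of quiescent endothelium, were not called (0.18 [0.37] and -0.23 [-0.26]). Apelin (Apln), released by tip cells, fell from 29.4, 36.9 and 46.6 FPKM to 1.99, 1.10 and 2.19 FPKM (log2 change -3.81 [-3.97], SE 0.29, adjusted p = 2.6e-07 [1.22e-06]). Esm1, another tip cell gene, had 14.5, 15.6 and 36.0 FPKM in the naive libraries and 0.702, 0.960 and 0.157 FPKM at 6 weeks (-3.76 [-3.98]). Placental growth factor (Pgf) had 9.87, 14.4 and 38.2 FPKM in the naive libraries and 0.507, 0.198 and 2.15 FPKM at 6 weeks (-3.39 [-3.78]). Adrenomedullin (Adm), a vessel-dilating peptide induced by hypoxia, fell from 28.2, 39.0 and 67.9 FPKM to 5.68, 3.55 and 3.45 FPKM (-3.07 [-3.35]). These 4 genes were several-fold lower in each 6-week library, whereas mouse Vegfa was not called (-0.38 [-0.50]). The call of Pdgfb, which endothelium releases to attract pericytes, ended without naive replicate 3 or 4 or 6-week replicate 2 or 3.

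Pericyte and red cell genes fell as well, as did 2 of 3 tested lymphatic genes. Of 9 pericyte genes 5 were called lower (7 in the reduced fit, median -0.93 [-1.09]). The adhesion molecule Mcam stood at 64.0, 127 and 120.2 FPKM in the naive libraries and 38.0, 31.5 and 45.3 FPKM at 6 weeks (log2 change -1.37 [-1.68], SE 0.25, adjusted p = 0.000851 [0.000113]). The channel subunits Kcnj8 and Abcc9 and the receptor Notch3 had changes of -1.34 [-1.80], -1.07 [-1.24] and -0.93 [-1.09]. The call of Abcc9 ended after thinning (adjusted p = 0.066). The call of Notch3 ended without 6-week replicate 3, and that of Kcnj8 without naive replicate 3 or 4 or 6-week replicate 1 or 2. Of 6 lymphatic genes 3 were tested, and Flt4, the receptor of VEGF-C, fell from 4.73, 5.90 and 7.87 FPKM to 1.65, 1.54 and 0.519 FPKM (-1.70 [-1.85]), as did Lyve1. The third tested gene was called in neither fit, and all its 6-week values lay above all its naive values. The summed level of the lymphatic list overlapped, with 80.1 to 102 FPKM in naive and 89.6 to 101 FPKM in 6-week libraries. Globin transcripts mark red cells in the tissue: of 5 tested erythroid genes of 6, 4 were called lower, and 5 in the reduced fit (median -1.46 [-1.80]). Alpha globin Hba-a1 stood at 504, 714 and 725 FPKM in the naive libraries and 238, 141 and 158 FPKM at 6 weeks (log2 change -1.87 [-2.04], SE 0.42, adjusted p = 0.00439 [0.00588]). Beta globin Hbb-bs stood at 282, 602 and 544 FPKM in the naive libraries and 197, 148 and 149.9 FPKM at 6 weeks (-1.46 [-1.80]). No 6-week library reached a naive one, and the globin genes occur as near-identical copies whose reads may be shared. Hbb-bt and the haem synthesis enzyme Alas2 had changes of -1.56 [-1.51] and -1.44 [-1.79].

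Hypoxia and glycolysis genes fell in part. Of 15 tested genes of 16, 7 were called lower and none higher in each fit (median -0.66 [-0.81]). The glucose transporter Slc2a1 stood at 29.6, 39.3 and 71.6 FPKM in the naive libraries and 9.45, 10.3 and 8.54 FPKM at 6 weeks (log2 change -2.11 [-2.38], SE 0.31, adjusted p = 0.000181 [0.00012]). The oxygen sensor Egln3, itself induced by hypoxia, fell from 9.59, 13.1 and 23.1 FPKM to 3.18, 2.92 and 0.247 FPKM (-2.49 [-2.76]), and the glycolytic Pgk1 from 148, 110.1 and 152 FPKM to 50.0, 47.9 and 65.4 FPKM (-1.31 [-1.25]). The groups were apart for these 3 genes. For Egln3 the mouse table held 163 reads in naive libraries and 52 at 6 weeks, against 44482 and 3219 in the human table. That is 3.66 and 16.15 mouse reads per 1000 human reads, the lowest of 14 genes of the list compared (medians 38.8 and 305). Whether tumour reads contribute to the mouse Egln3 values was not tested. Bnip3, Hk2 and Vegfa, also induced by hypoxia, were not called (0.15 [0.08], 0.00 [-0.01] and -0.38 [-0.50]). The calls of the glycolytic Ldha and Pfkp ended without naive replicate 4 or 6-week replicate 1 or 2, that of Ldha also in the reduced fit and that of Pfkp without naive replicate 3.

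Cell division genes of the mouse table fell to low levels at 6 weeks. Of 17 tested genes 14 were called lower and none higher in each fit (median -2.09 [-2.00]), and 14 or 15 were called without any 1 library. Mki67, the proliferation antigen, stood at 9.61, 9.42 and 5.95 FPKM in the naive libraries and 0.366, 0.229 and 0.458 FPKM at 6 weeks (log2 change -2.77 [-2.66], SE 0.22, adjusted p = 2.94e-07 [2.84e-06]). Cyclin A2 (Ccna2) fell from 11.8, 9.95 and 4.42 FPKM to 0.0902, 0.352 and 0.161 FPKM (-2.93 [-2.69]). Cyclin B1 (Ccnb1) fell from 6.37, 6.69 and 4.09 FPKM to 0.175, 0 and 0 FPKM (-2.65 [-2.57]), and Rrm2, a subunit of ribonucleotide reductase, had a change of -2.72 [-2.64] with 1.20, 2.18 and 0.237 FPKM at 6 weeks. Every 6-week library lay far below every naive library. The replication genes Mcm3, Pcna and Tyms were not called. No source used here says how human and mouse reads were separated, so the mouse table was set beside the human one. For 8 epithelial markers, genes of the tumour's own lineage, the mouse table held a median of 0.219 reads per 1000 reads of the same symbol in the human table in naive libraries (range 0 to 0.962), against a median of 25.9 for the 17 proliferation genes (range 9.57 to 68.1). At 6 weeks the medians were 0.240 and 66.7, with a highest epithelial value of 33.5 for Muc1. Of the 8 epithelial markers 2 passed the filter in the mouse table. Krt19 fell there from 1.93, 6.69 and 4.87 FPKM to 0.198, 0 and 0 FPKM (-2.26 [-2.66]). For Krt19 the mouse table held 30 reads in naive libraries and 1 at 6 weeks, against 89513 and 12925 in the human table. Whether tumour reads contribute to the mouse values of Krt19 or of the proliferation genes was not tested.

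**Figure D3:**
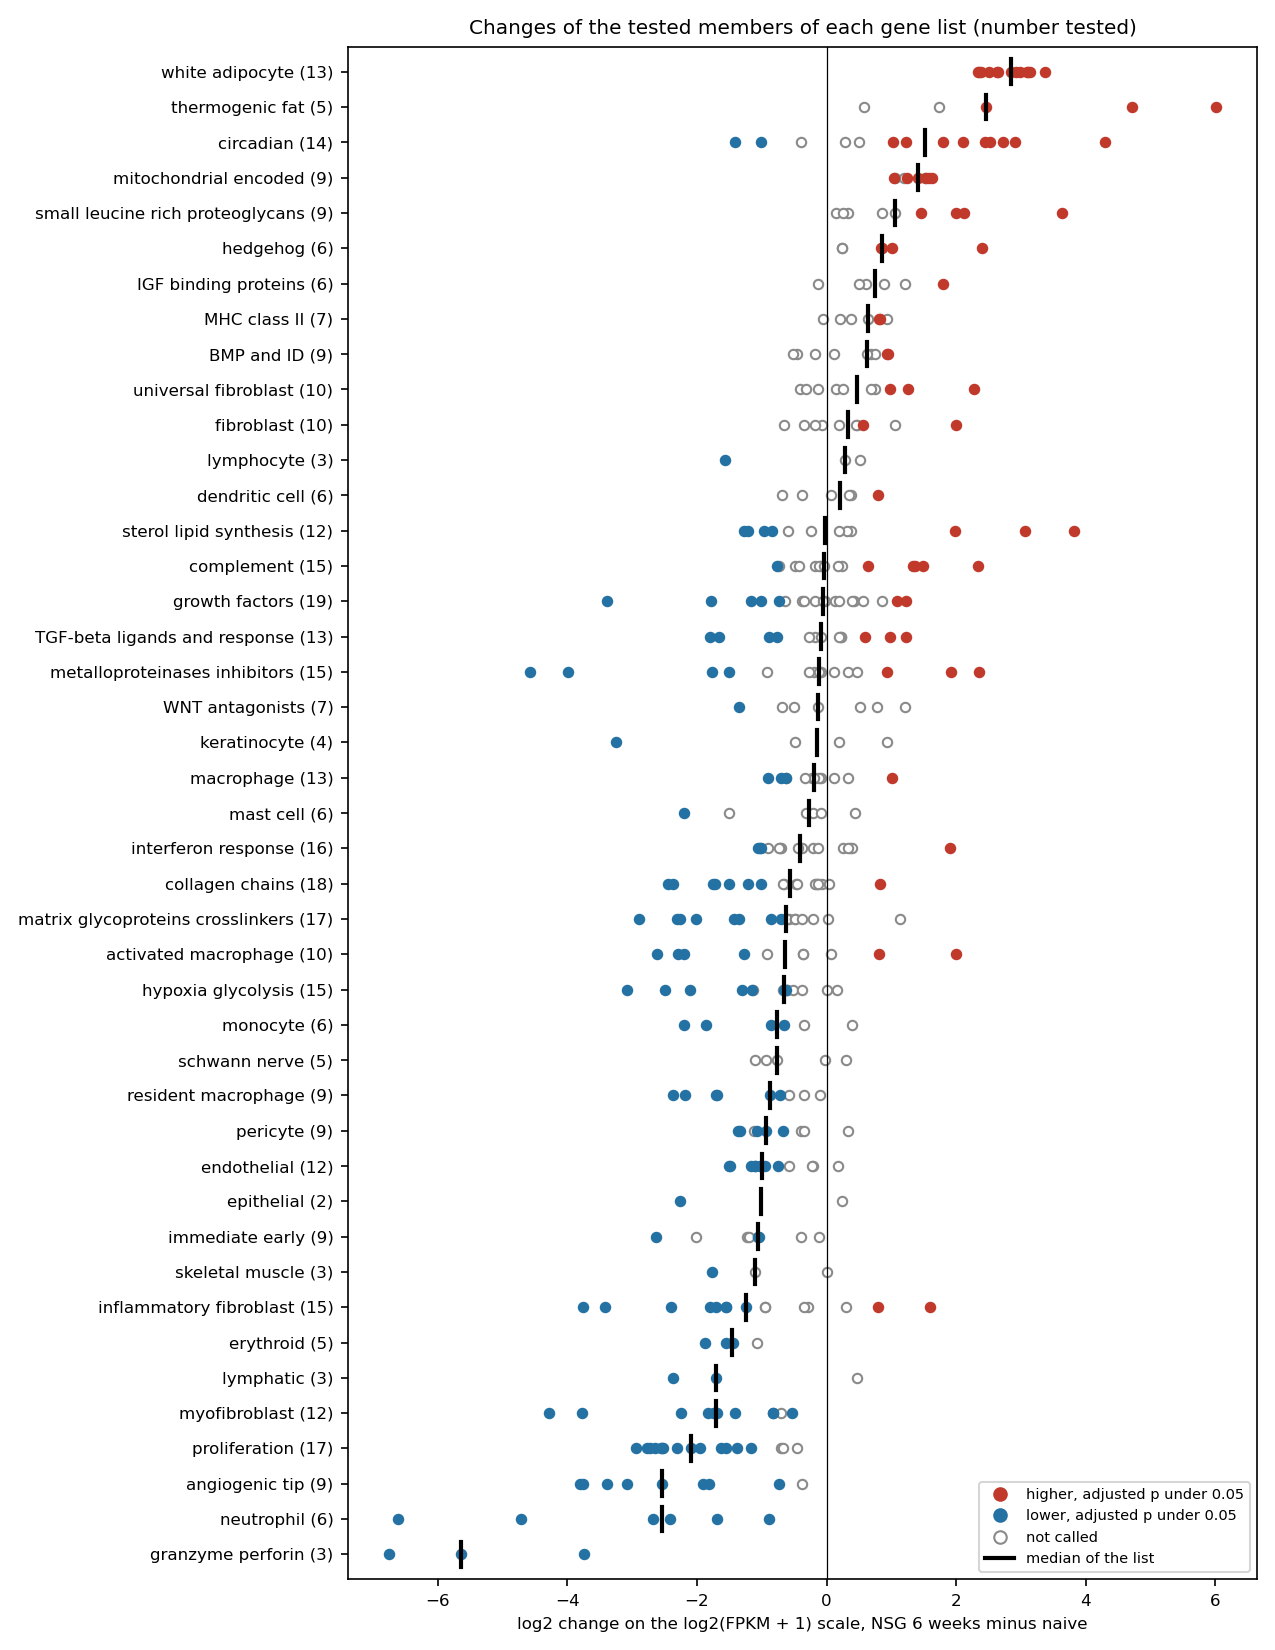
Log2 change (horizontal) of every tested member of the 43 gene lists, ordered by the list median (black bar), with the number tested in brackets. Red and blue points were called higher or lower and open points were not called. White adipocyte genes all lie above 2, and neutrophil, granzyme, angiogenic, proliferation and myofibroblast lists lie mostly below 0.

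Growth factor and morphogen pathways changed in single members. For TGF-beta, which drives myofibroblasts, 3 of 13 genes were called higher and 4 lower (2 and 4 in the reduced fit, median -0.09 [-0.02]), with 1 higher without 6-week replicate 3 and 2 lower without naive replicate 3 or 4. Among ligands, Tgfb3 rose from 51.9, 50.4 and 56.0 FPKM to 114, 135 and 126 FPKM (log2 change 1.23 [1.22], SE 0.21, adjusted p = 0.000491 [0.00171]). Inhba, the activin A subunit, fell from 17.7, 14.3 and 26.2 FPKM to 5.47, 6.26 and 4.32 FPKM (log2 change -1.65 [-1.70], SE 0.39, adjusted p = 0.00602 [0.0127]). Tgfb1 had changes of -0.77 [-0.93], a call lost without naive replicate 3 or 4. Ltbp1, which stores the latent ligand, rose (0.97 [1.07]), with its call lost without naive replicate 4 or 6-week replicate 3, and the TGF-beta target Ctgf was not called (0.22 [-0.02]). Of 9 tested BMP and ID genes of 10, Id3 and Id4 were called higher (0.93 and 0.94) and none in the reduced fit (adjusted p = 0.0664 and 0.087) or without 6-week replicate 1 or 3, and Id4 was not called without naive replicate 3 or 4 either.

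Hedgehog target genes were higher. Of 6 tested genes of 7, 4 were called higher in each fit (median 0.85 [0.73]), and 3 or 4 without any 1 library. Gli1, the transcription factor whose own transcript reports pathway activity in stroma, stood at 0, 0.226 and 0.329 FPKM in the naive libraries and 5.23, 3.97 and 6.72 FPKM at 6 weeks (log2 change 2.40 [2.28], SE 0.30, adjusted p = 3.67e-05 [0.000226]). The levels were low and separate in all libraries. The receptor Ptch1 and the factor Gli2 rose by smaller steps (0.85 [0.88] and 1.00 [0.74]), and the call of Ptch1 ended without naive replicate 3 or 4 or 6-week replicate 2 or 3. That of Gli2 ended with only the 2 groups in the fit (adjusted p = 0.0538). Among 7 WNT antagonists Sfrp1 fell from 29.3, 69.4 and 43.2 FPKM to 14.7, 16.6 and 19.3 FPKM (log2 change -1.36 [-1.65], SE 0.27, adjusted p = 0.00191 [0.000462]), and the other 6 were not called in either fit.

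Among 19 tested growth factors and receptors of 24, 2 were called higher and 5 lower (2 and 4 in the reduced fit, median -0.06 [-0.09]). Igf1, a survival factor made by fibroblasts and macrophages, stood at 15.9, 17.2 and 15.5 FPKM in the naive libraries and 37.4, 39.1 and 40.7 FPKM at 6 weeks (log2 change 1.22 [1.21], SE 0.21, adjusted p = 0.000684 [0.00239]). Fgf10, a fibroblast factor for epithelium and fat precursors, had changes of 1.08 [1.02] (a call lost without naive replicate 4 or 6-week replicate 2 or 3). Without naive replicate 4 the lower count of the list was 3. The EGF receptor ligand Hbegf fell from 10.9, 12.8 and 15.6 FPKM to 4.81, 3.39 and 1.66 FPKM (-1.78 [-1.89]), and platelet-derived growth factor A (Pdgfa) from 11.6, 19.5 and 20.3 FPKM to 5.67, 8.30 and 6.75 FPKM (-1.17 [-1.42]). The groups were apart for Igf1, Hbegf and Pdgfa. Of 6 insulin-like growth factor binding proteins Igfbp6, which prefers IGF2, rose from 77.3, 108 and 91.5 FPKM to 272, 338 and 358 FPKM (log2 change 1.80 [1.68], SE 0.25, adjusted p = 0.000123 [0.000639]). The other 5 were not called in either fit, and 2 genes of the list were higher without naive replicate 3. Mouse Hgf, the ligand of the receptor Met, stood at 0.872, 3.93 and 3.31 FPKM in the naive libraries and 2.66, 1.84 and 1.60 FPKM at 6 weeks, with overlapping ranges (log2 change -0.18 [-0.62], SE 0.35, adjusted p = 0.767 [0.211]). Mouse Met had 1.11, 0.882 and 2.46 FPKM in the naive libraries and 3.45, 2.92 and 3.64 FPKM at 6 weeks (log2 change 0.85 [0.76], SE 0.30, adjusted p = 0.0595 [0.138]), so neither passed the test.

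Clock output genes rose. Of 14 circadian genes 9 were called higher and 2 lower (8 and 1 in the reduced fit, 1 lower also without naive replicate 4 or any 6-week library, median 1.51 [1.37]). Dbp, a clock output factor whose level swings over the day (chr7:45705088-45710203 of mm10), stood at 2.69, 2.64 and 1.92 FPKM in the naive libraries and 73.1, 64.0 and 61.4 FPKM at 6 weeks (log2 change 4.30 [4.36], SE 0.29, adjusted p = 3.77e-08 [5.85e-07]). Its relatives Tef and Hlf rose from 3.30, 3.59 and 3.65 FPKM to 33.1, 31.9 and 33.2 FPKM and from 0, 0.507 and 0.737 FPKM to 4.57, 4.52 and 5.76 FPKM (2.90 [2.87] and 2.10 [1.87]). Libraries within a group differed little and the groups were far apart. Per3, a negative arm gene, went from 0.186, 0.117 and 0.171 FPKM to 7.20, 7.24 and 5.65 FPKM (2.73 [2.74]), and the repressor Nr1d2 from 7.28, 2.71 and 6.98 FPKM to 33.1, 38.7 and 33.2 FPKM (2.52 [2.72]). The positive arm gene Arntl moved the other way, from 3.51, 5.55 and 5.67 FPKM to 1.37, 1.38 and 0.874 FPKM (-1.41 [-1.59]). Npas2 was called lower in the full fit (-1.01) and not in the reduced one (adjusted p = 0.0627), nor without naive replicate 4 or any 6-week library. Ciart, a clock repressor with a change of 1.03, lost its call in the reduced fit (adjusted p = 0.199) and without naive replicate 4 or 6-week replicate 2 or 3. The labels give no hour of collection, so the group and the time of day cannot be told apart for these genes.

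Immediate-early genes, which respond within minutes to handling and to growth factors, varied among libraries. Of 9 tested genes 3 were called lower (5 in the reduced fit, 1 without naive replicate 3 or 6-week replicate 3, 6 without 6-week replicate 1, median -1.07 [-1.46]). Fos stood at 23.2, 86.8 and 46.7 FPKM in the naive libraries and 9.39, 6.60 and 4.47 FPKM at 6 weeks (log2 change -2.63 [-3.10], SE 0.44, adjusted p = 0.000462 [0.000147]). Fosb stood at 9.54, 8.32 and 7.49 FPKM in the naive libraries and 22.7, 1.29 and 0.263 FPKM at 6 weeks, so 1 library of 6-week tumours was the highest of all 6. The mRNA-destabilising Zfp36 and the factor Junb had changes of -1.06 [-1.33] and -1.05 [-1.46], calls that ended without naive replicate 3 or 6-week replicate 3, and for Junb also without naive replicate 4. Mitochondrially encoded genes were called higher in 6 of 9 cases in each fit (median 1.40 [1.45]), but in 0 to 2 of 9 when any 1 library other than the one labelled naive replicate 1 was left out. For mt-Cytb, a respiratory complex III subunit, the libraries held 1736, 1303 and 1227 FPKM in the naive libraries and 3615, 4181 and 4413 FPKM at 6 weeks, without overlap (log2 change 1.53 [1.68]). For mt-Co2, mt-Co3 and mt-Nd2 the libraries gave changes of 1.40 [1.45], 1.63 [1.65] and 1.58 [1.77]. Nuclear copies of mitochondrial genes can share their reads.

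After 2 weeks of alectinib part of this pattern was present in NSG hosts. Against the same naive libraries, which the 2 comparisons share, the 2-week comparison called 1115 of 14287 genes (7.8%), of which 475 rose (3.32%) and 640 fell (4.48%). In the reduced fit 1089 were called, without 2-week replicate 1 or 3 the counts were 734 and 655. At 2 weeks all 3 tested granzymes, 5 of 6 neutrophil genes, 8 of 9 angiogenic genes and 12 of 15 hypoxia genes were already called lower and 5 of 6 hedgehog genes higher (3, 6, 8, 13 and 4 in the reduced fit). The neutrophil count was 3 without naive replicate 3. Gzme, at 108 ± 22.4 FPKM in naive libraries (mean ± SD, n = 3), stood at 1.83 ± 1.45 FPKM at 2 weeks (n = 4), a change of -5.41 [-5.59]. Mmp13 and Apln had 2-week changes of -4.33 [-4.93] and -3.86 [-4.02], beside 6-week changes of -4.58 [-5.18] and -3.81 [-3.97]. Gli1 was higher at 2 weeks by 3.61 [3.50] and at 6 weeks by 2.40 [2.28], and Dbp by 3.39 [3.45] and 4.30 [4.36].

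Fat genes were not called at 2 weeks in the full fit, and some contractile and division genes were already lower. At 2 weeks 0 of 13 white adipocyte genes were called, with a median of 0.86, and 2 in the reduced fit, among them Plin1 (change 1.48 [2.08]). None of 5 thermogenic genes was called in either fit. Of 12 myofibroblast genes 2 were called lower (4 in the reduced fit, 1 without naive replicate 3 or 2-week replicate 2 or 3, 0 without naive replicate 4 or 2-week replicate 1). Acta2 was not among them (limma change -0.24 [-0.42], adjusted p = 0.75 [0.612]). Of 17 proliferation genes 6 were called lower (2 in the reduced fit and without naive replicate 3 or 2-week replicate 3), with a change of -0.96 [-0.85] for Mki67. The summed level of these 17 genes was 71.5 to 95.2 FPKM at 2 weeks and 124 to 179 FPKM in naive libraries, without overlap.

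The direct comparison of 6 with 2 weeks does not use the naive libraries as a reference. It called 556 of 14287 genes (3.89%), 341 higher (2.39%) and 215 lower (1.5%), and the count fell to 142 without 6-week replicate 1, 232 and 235 without 6-week replicates 2 and 3, and 216 and 341 without 2-week replicates 2 and 4. Higher at 6 than at 2 weeks were 7 of 13 white adipocyte genes, 6 of 14 circadian genes and 2 of 5 thermogenic genes, and lower were 13 of 17 proliferation, 8 of 12 myofibroblast and 8 of 18 collagen genes. Without 2-week replicate 2 these counts fell to 1, 2, 0, 7, 5 and 3, and without 6-week replicate 1 to 1, 3, 0, 7, 5 and 2. Over all 7 omissions the adipocyte count ranged from 1 to 7, the circadian from 2 to 6, the thermogenic from 0 to 2, the proliferation from 7 to 11, the myofibroblast from 3 to 8 and the collagen count from 2 to 8. Cyp2e1 stood at 46.3 ± 11.4 FPKM at 2 weeks and 531 ± 64.8 FPKM at 6 weeks (SD, difference 3.51, adjusted p = 0.00115), and the carboxylesterase Ces1f and the little-studied Rprml were higher by 2.77 and 3.00. Fbn2 fell from 7.72 ± 1.73 FPKM to 1.06 ± 0.181 FPKM (-2.07, adjusted p = 0.000177), the collagen gene Col26a1 by a difference of -2.34 and S100a9 by -3.64. These 6 kept their calls without any 1 library. Cidea and Cox8b were higher at 6 weeks by 3.72 and 3.67 and Actg2 and Cnn1 lower by differences of -2.54 and -2.07, but all 4 calls ended without 6-week replicate 2 or 3 (adjusted p up to 0.0695, 0.136, 0.124 and 0.0766). Those of Cidea, Cox8b and Actg2 also ended without 6-week replicate 1 or 2-week replicate 2, those of Cox8b and Actg2 without 2-week replicate 4, that of Cox8b without 2-week replicate 1 and that of Actg2 without 2-week replicate 3.

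**Figure D4:**
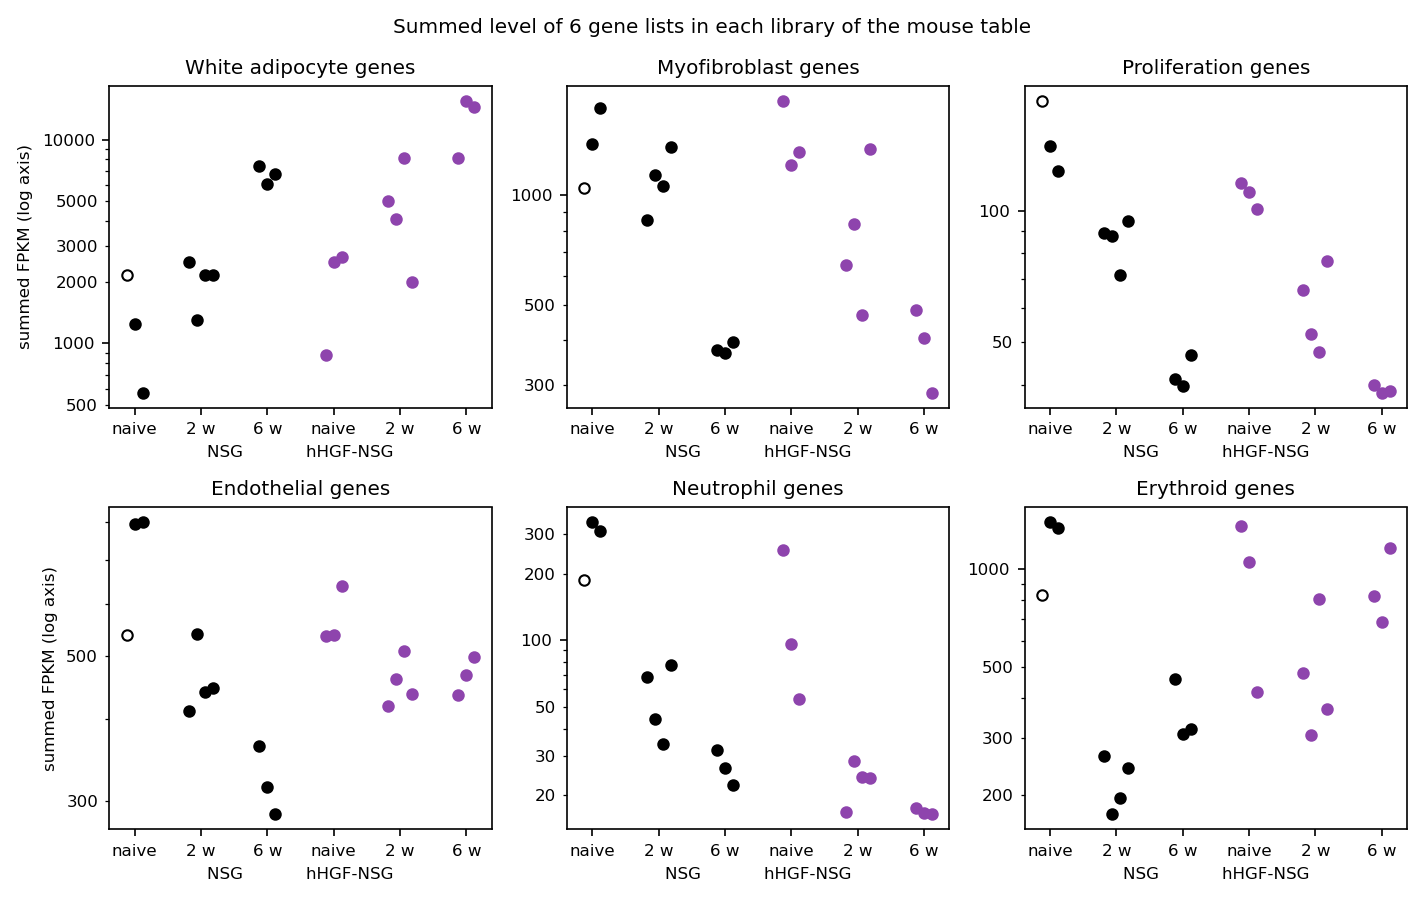
Summed FPKM (log axis) of 6 gene lists in each of the 20 libraries of the mouse table, by host and time of alectinib, with NSG in black and hHGF-NSG in purple and the library labelled NSG naive replicate 1 open. NSG white adipocyte sums reach 6043 to 7417 FPKM only at 6 weeks, neutrophil sums are already lower at 2 weeks, and myofibroblast sums fall at 6 weeks.

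The hHGF-NSG libraries share none with these comparisons and gave the 6-week comparison a second time. There 2541 of 14287 genes were called (17.8%), 1381 higher (9.67%) and 1160 lower (8.12%), with 1641 called without hHGF-NSG 6 weeks replicate 2. The 12 strongest rises and the 12 strongest falls of NSG all lay on the same side of 0 in that host. White adipocyte genes were called higher in 13 of 13 cases (median 2.87) and myofibroblast genes lower in 10 of 12 (median -1.32). Called lower were also proliferation genes in 13 of 17 (median -1.65), granzymes in 3 of 3 and resident macrophage genes in 6 of 9 cases, and 9 of 14 circadian genes were called higher. Dbp changed by 4.45 there and by 4.30 in NSG, and Gzme by -6.45 and -6.75. Erythroid genes were called in 0 of 5 cases in hHGF-NSG (median 0.02), with -0.08 for Hba-a1 beside -1.87 in NSG. The difference between hosts for Hba-a1 did not pass (difference -1.79, SE 0.59, adjusted p = 0.545, and -1.96 with adjusted p = 0.315 in the reduced fit). Endothelial genes were called lower in 3 of 12 cases there against 8 of 12 in NSG, and for Plvap the difference was -0.99 (SE 0.29, adjusted p = 0.537, and -1.23 with adjusted p = 0.0938 in the reduced fit).

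Tested directly, the 6-week response differed between hosts for 1 of 14287 genes by limma (0.007%), with 985 at an unadjusted p under 0.05, and for 0 genes with a pseudocount of 0.1 or after thinning and 1 by voom. The called gene, Mir7013, is a microRNA gene that all NSG libraries list at 0 FPKM, and no gene was called when any 1 of the 3 hHGF-NSG 6-week libraries was left out. In the reduced fit 5 genes were called, 2 of them protein coding, Tnn and Tstd3. Tenascin N (Tnn), a matrix protein of mesenchyme, had group means of 36.0 FPKM in naive and 41.6 FPKM in 6-week NSG libraries, but 20.2 and 1.75 FPKM in hHGF-NSG. Its change in NSG exceeded that in hHGF-NSG by 3.33 (SE 0.54, adjusted p = 0.053), and by 2.77 with adjusted p = 0.02 in the reduced fit, so its call rests on leaving out the library labelled NSG naive replicate 1. For Tstd3, a little-studied gene, the difference was 1.90 (SE 0.58, adjusted p = 0.537), and 2.54 with adjusted p = 0.0426 in the reduced fit. Complement C5 (Hc) had group means of 0.379 and 6.04 FPKM in NSG and 0.0203 and 0.796 FPKM in hHGF-NSG, and its difference of 1.55 did not pass (adjusted p = 0.0937, and 1.38 with adjusted p = 0.0887 in the reduced fit).

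**Figure D5:**
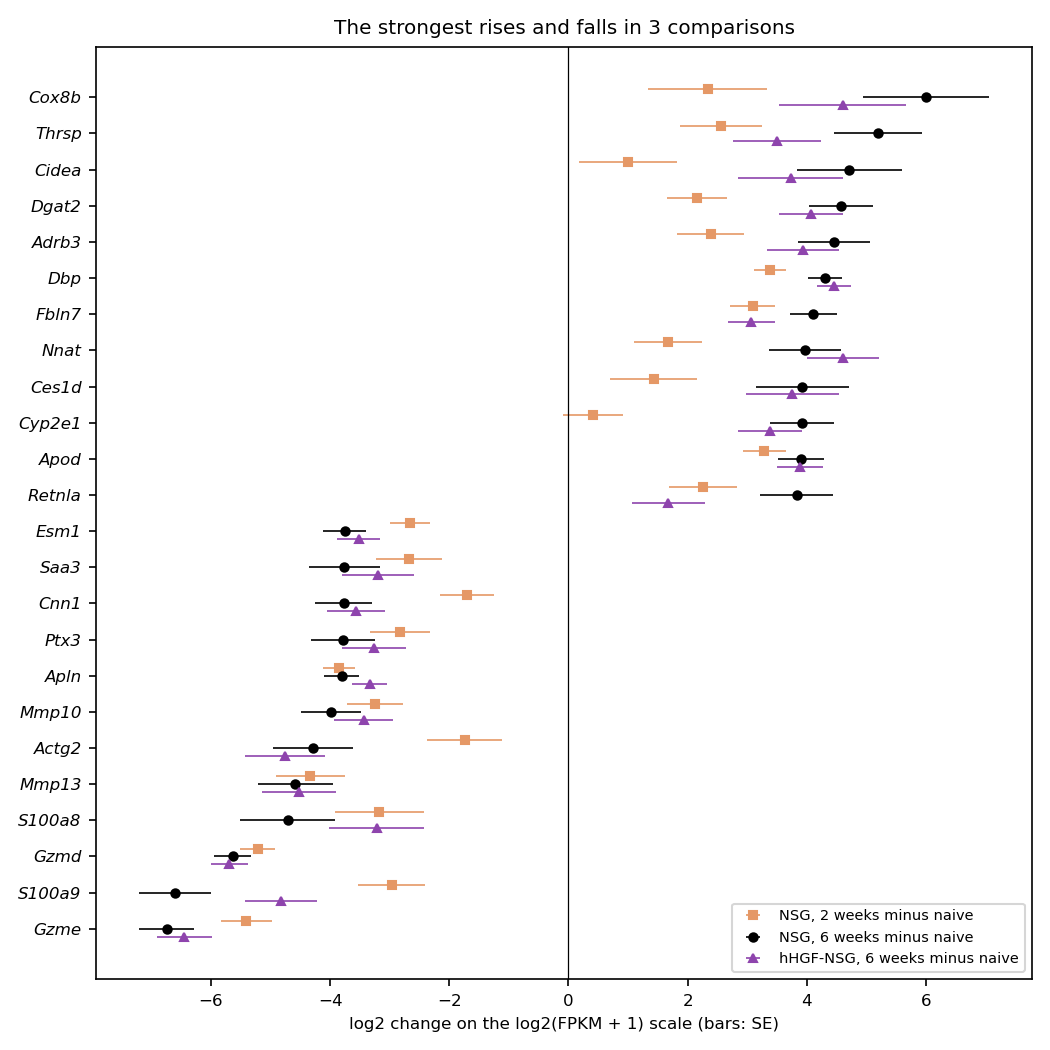
Log2 change with its SE for the 12 genes that rose most and the 12 that fell most in NSG at 6 weeks (black circles), beside NSG at 2 weeks (orange squares) and hHGF-NSG at 6 weeks (purple triangles). The NSG comparisons share their naive libraries, and Mmp13 and Apln lie at similar distances from 0 at both times while Cidea, Cyp2e1 and Actg2 lie further from 0 at 6 weeks.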

How the data were processed

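Total RNA of xenograft tumour tissue was extracted with TRIzol and sequenced, per the labels' protocols, and the authors deposited 1 table of human and 1 of mouse gene expression as FPKM. The builds GRCh38, hg38 and mm10 and the tool DESeq2 are named in the submitters' processing notes without a role. No aligner and no method of separating the species is named, and both count as not given in the sources used here. Whole reads were recovered from the FPKM steps (100% of values within 0.05 of a whole read). The library size behind the FPKM was 0.947 to 1.11 times the mouse read total, so FPKM here is scaled to a size other than that total.

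Mouse genes with at least 1 FPKM in at least 3 of the 20 libraries were fitted with limma 3.58.1 (R 4.3.3) on log2(FPKM + 1), with a mean per group over 6 groups, a variance trend and two-sided tests with Benjamini-Hochberg adjustment over all tested genes. Contrasts were NSG 6 weeks minus naive, 2 weeks minus naive, 6 minus 2 weeks, hHGF-NSG 6 weeks minus naive and the difference of the 6-week responses. Named genes were the 12 largest called changes per direction among protein-coding genes without overlap and at least 5 FPKM in the higher group, up to 4 members of each of 43 lists (441 members in all), the 5 largest per direction for 6 against 2 weeks, and Hgf and Met. A few list members are counted but not reported by name here. Other members named as examples, and Tnn, Tstd3 and Hc, were chosen after their values were seen. Members and lists were chosen with earlier results of these data known. Some genes stand in more than 1 list (Pgf, Adm, Lyve1, Pdgfb, Vegfa, Dcn, Cfd and others). Genes with near-identical copies (granzymes, globins, Ces1 and Scd families, mitochondrial genes) are uncertain where reads could be shared. Alternatives were a pseudocount of 0.1, no filter, median ratio rescaling, a replicate block, leaving out each library, only the 2 groups, voom on the recovered reads, and thinning to 895826 reads. Leaving out 2-week and hHGF-NSG libraries was added after seeing the data. Replicate counts limit precision, and the floors of 3 reads cover counting error only. Sequences were not used here.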

Additional observations from a re-analysis of the deposited data

Results flagged for a closer look

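The microRNA gene Mir7013 differed between hosts in its 6-week change (difference -3.03 on the log2 scale, NSG minus hHGF-NSG, limma adjusted p = 0.00214, and 0.0049 in the reduced fit). It was listed at 0 FPKM in every NSG library. In hHGF-NSG its group mean was 7.78 FPKM at 6 weeks and 0 in naive libraries. Mouse reads in these hHGF-NSG libraries were 4610522, 5766509 and 4356095 at 6 weeks and 1127966, 1634793 and 2471749 in naive tumours. The 6-week libraries were thus deeper, and the number of Mir7013 reads behind its mean is not given here. Mir7013 was the single gene to pass the test of the difference between hosts in the fit to all libraries. Without hHGF-NSG 6-week replicate 1, 2 or 3, with a pseudocount of 0.1 or after thinning no gene passed, so the call of Mir7013 ended under each of these 5 alternatives.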

How the results depend on the processing

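The 2486 genes called between 6 weeks and naive in NSG ranged from 1728 to 2583 with 1 library left out and from 1791 to 2492 under the other alternatives. For 2 weeks against naive the 1115 calls became 655 after thinning and ranged from 655 to 1120 with 1 library left out. For 6 against 2 weeks the 556 calls became 351 with no filter, 364 after thinning and 975 by voom, and ranged from 142 to 385 with 1 library left out. The hHGF-NSG count of 2541 ranged from 1641 to 2562 with 1 library left out and from 1929 to 2809 under the other alternatives. The single gene differing between hosts became 3 with no filter, 0 with a pseudocount of 0.1 and 0 after thinning, and ranged from 0 to 5 with 1 library left out. The cause of these shifts was not tested, apart from the lower depth after thinning and the fewer libraries in each omission. Whether the replicate numbers pair the samples cannot be decided, because only 2 numbers are shared. Deviations of libraries with the same number had correlations of -0.04 and -0.001. With the replicate block the counts were 1971 for 6 weeks against naive, 327 for 6 against 2 weeks and 2 for the difference between hosts. The difference in mouse read share, 11.2 percentage points, ranged from 9.87 to 13.2. Of 217 list members called in NSG at 6 weeks, from 2 (median ratio rescaling) to 41 (without 6-week replicate 3) lost their call under an alternative, 23 of them under the block, and none reversed. Depth limits low genes most, since the smallest naive library holds 895826 mouse reads.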
